A study of Homo sapiens with 6 samples.

Results

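The 10 genes described here (such as FOS, ENSG00000170345, FOSL1, ENSG00000175592, JUN, ENSG00000177606, and EGR1, ENSG00000120738) encode the immediate early transcription factors of the AP-1 and EGR groups and a protein induced with them: FOS, FOSB, FOSL1 and FOSL2, JUN, JUNB and JUND, ATF3, EGR1, and IER3. They were chosen by name, as the rows of the deposited tables whose gene symbol is one of the 10. All 10 were among the 21519 genes of the co-culture table, and 8 were among the 9450 genes of the METTL1 knockdown table, in which every gene has a listed m7G peak. FOSB and ATF3 were not listed there and were not analysed in that comparison. The samples were all of DLD1, a human colorectal carcinoma cell line. The library S-CAFs-w13 comes from wild-type DLD1 cells grown with S-CAFs. The library DLD1-W13CM was taken, as the remaining wild-type library, for cells grown with cancer-associated fibroblasts (CAFs). The title DLD1-W13CM does not name a co-culture, and the letters CM are not explained, so the library is called by its title. How the cells were parted from the fibroblasts before lysis is not stated in the labels. DLD1 cells with stable knockdown of METTL1, the enzyme that writes internal N7-methylguanosine (m7G) in tRNA and other RNAs, were compared with control cells (titles sh2 and sh-NT). The knockdown rests on the single construct sh2. Input RNA and an m7G immunoprecipitate (IP) were sequenced from each line, which makes 6 libraries, 1 for each group.

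AP-1 is a dimer of basic leucine zipper proteins. FOS family proteins bind DNA only with a partner, usually a JUN family protein, whereas JUN proteins can also pair with each other or with ATF proteins such as ATF3. Immediate early genes are switched on within minutes of a growth factor or stress signal without new protein synthesis, largely through ERK, the ternary complex factors ELK1, ELK3 and ELK4 and serum response factor (SRF), which binds CArG boxes, and through factors at cAMP response elements (CRE). Their mRNAs are mostly short-lived. FOS and FOSB are typically transient, while FOSL1 (Fra-1) and FOSL2 (Fra-2) last longer and FOSL1 is prominent in carcinoma cells with an active RAS pathway. EGR1 is a zinc finger factor of the same response, and IER3 is a small protein of the stress response that modulates ERK signalling and apoptosis.

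Promoter sequences of 4 members are shown, chosen because these members parted ways in the co-culture comparison. Whether promoter sequence bears on these differences was not tested. A RefSeq promoter window, from 250 bases before the gene start to 50 after it, was found for 8 of the 10 members, without FOSL1 and IER3. The 130 bases before the gene start are printed 5′ to 3′ on the gene's strand (RefSeq, GRCh38.p14). Capitals mark CArG boxes, TATAAA, the CRE core TGACG on either strand (CGTCA where it lies on the other strand), and TGACATCA, a variant found in the JUN promoter. They lie at chr14:75278698-75278827 (FOS, plus strand), chr19:45467866-45467995 (FOSB, plus strand), chr5:138465349-138465478 (EGR1, plus strand) and chr1:58784048-58784177 (JUN, minus strand).
FOS: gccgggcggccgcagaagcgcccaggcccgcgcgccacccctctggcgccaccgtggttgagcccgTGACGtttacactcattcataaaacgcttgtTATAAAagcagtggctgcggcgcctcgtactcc
FOSB: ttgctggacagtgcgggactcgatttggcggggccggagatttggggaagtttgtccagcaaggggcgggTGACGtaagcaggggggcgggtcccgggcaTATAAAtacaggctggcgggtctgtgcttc
EGR1: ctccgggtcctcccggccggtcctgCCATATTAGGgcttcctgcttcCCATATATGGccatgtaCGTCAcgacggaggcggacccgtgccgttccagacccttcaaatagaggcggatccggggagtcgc
JUN: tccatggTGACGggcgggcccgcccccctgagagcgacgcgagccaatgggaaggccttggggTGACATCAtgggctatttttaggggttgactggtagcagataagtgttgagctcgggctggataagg

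EGR1 carried 2 CArG boxes in its window, CCATATTAGG beginning 105 bases and CCATATATGG beginning 83 bases before the gene start. Of the 8 members with a window it was the single one with a match. In all, 1.3% of the 34796 distinct RefSeq promoter windows held such a box (CC, then 6 bases of A or T, then GG, both strands). Boxes farther than 250 bases before the gene start were not searched, so members without a match may have one there. FOS and FOSB had TATAAA at 33 and 30 bases and TGACG at 64 and 60 bases before the gene start. Other members shared these motifs. TATAAA was also found in JUNB at 31 bases and in the second ATF3 window at 230 bases. TGACG on either strand was also found in FOSL2 and EGR1, each with a match at 66 bases, and in JUN, JUNB and JUND. TGACG on either strand occurred in 24.5% and TATAAA in 11.6% of all windows. The full CRE TGACGTCA was found in JUND alone among the 8 members with a window, 200 bases before the gene start, and in 1.84% of windows. TGACATCA was found in JUN, beginning 67 bases before the gene start, and in the first of the 2 ATF3 windows, 123 bases before it, against 2.6% of windows. The AP-1 motif TGACTCA (both strands searched) was found in FOSL2, just after the gene start, against 4.96% of windows. The EGR motif, searched as GCGTGGGCG and as GCGGGGGCG on both strands, had no match in the member windows and was found in 5.76% of all windows. TGACG and TGACATCA were added to the search after the windows had been seen. These matches are letters in a window and show no binding, and nothing outside the windows was searched.

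Expression values are FPKM, which take account of the length of the gene and the size of the library, so genes can be set in order within a library. The effective library sizes recovered from the steps of the FPKM values were 6337932 for DLD1-W13CM, 6215547 for S-CAFs-w13, and in the inputs 10454179 (control) and 11625162 (knockdown). The members rested on 35 to 2381 recovered reads in the co-culture table and on 106 to 3025 recovered reads in the knockdown table. With 1 library in each group there was no replicate check and no test across libraries. Each range in parentheses is the 95% Clopper-Pearson interval of a ratio of reads, scaled to FPKM, and such intervals cover counting error only and say nothing of variation between cultures. Of 9 colon epithelial markers 9 were listed in the co-culture table, with summed levels of 2093 FPKM (DLD1-W13CM) and 3199 FPKM (S-CAFs-w13). Their counting intervals lay above no difference for KRT8, KRT18, KRT19 (2.27-fold) and CEACAM5 (4.87-fold), and below it for CDH1 (1.3-fold) and CDX2 (2.78-fold), while those of EPCAM, KRT20 and VIL1 included it. The knockdown table lists 7 of them, with sums of 2956 FPKM (control) and 3521 FPKM (knockdown) and ratios of 0.882 (CDH1) to 1.36 (KRT20). Of 15 fibroblast markers 8 were listed in the co-culture table, with summed levels of 6.36 FPKM (DLD1-W13CM) and 6.31 FPKM (S-CAFs-w13). The markers DCN, LUM, COL1A2, COL3A1, PDGFRA, FAP and THY1 were not listed. Of the 8, the counting interval lay above no difference for COL1A1, COL6A1 and PDGFRB, at 0.0221 to 0.0482 FPKM (DLD1-W13CM) and 0.229 to 0.564 FPKM (S-CAFs-w13). It lay below for FN1, at 3.12 FPKM and 1.71 FPKM, and included no difference for ACTA2 (1.8 FPKM and 1.51 FPKM), VIM, SPARC and TAGLN. None of the 15 was listed in the knockdown table. The part of epithelial or fibroblast marker shifts in the member values was not tested. In such bulk RNA, fewer cells of a type and less RNA per cell cannot be told apart. The targeted gene METTL1 was 1.77-fold lower in the knockdown (1.37 to 2.29), with levels of 5.8 FPKM (control) and 3.28 FPKM (knockdown).

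In DLD1-W13CM the highest member was IER3 at 171 FPKM, followed by EGR1 at 120 FPKM and JUNB at 53 FPKM. FOSL1 stood at 33.9 FPKM, FOSL2 at 19 FPKM and JUND at 13.1 FPKM. FOS at 8.92 FPKM and JUN at 8.38 FPKM lay close together, and ATF3 at 4.26 FPKM and FOSB at 0.994 FPKM were the lowest. In S-CAFs-w13 IER3 was again first at 215 FPKM, and JUNB at 73.2 FPKM and FOSL1 at 70.2 FPKM had passed EGR1, which stood next at 31.5 FPKM. FOS was the second lowest at 3.23 FPKM, just above FOSB at 2.93 FPKM. In both libraries of the knockdown table IER3, EGR1 and JUNB were the 3 highest members and FOS the lowest. The 2 tables were normalised separately, so levels are not compared between them.

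**Figure D1:**
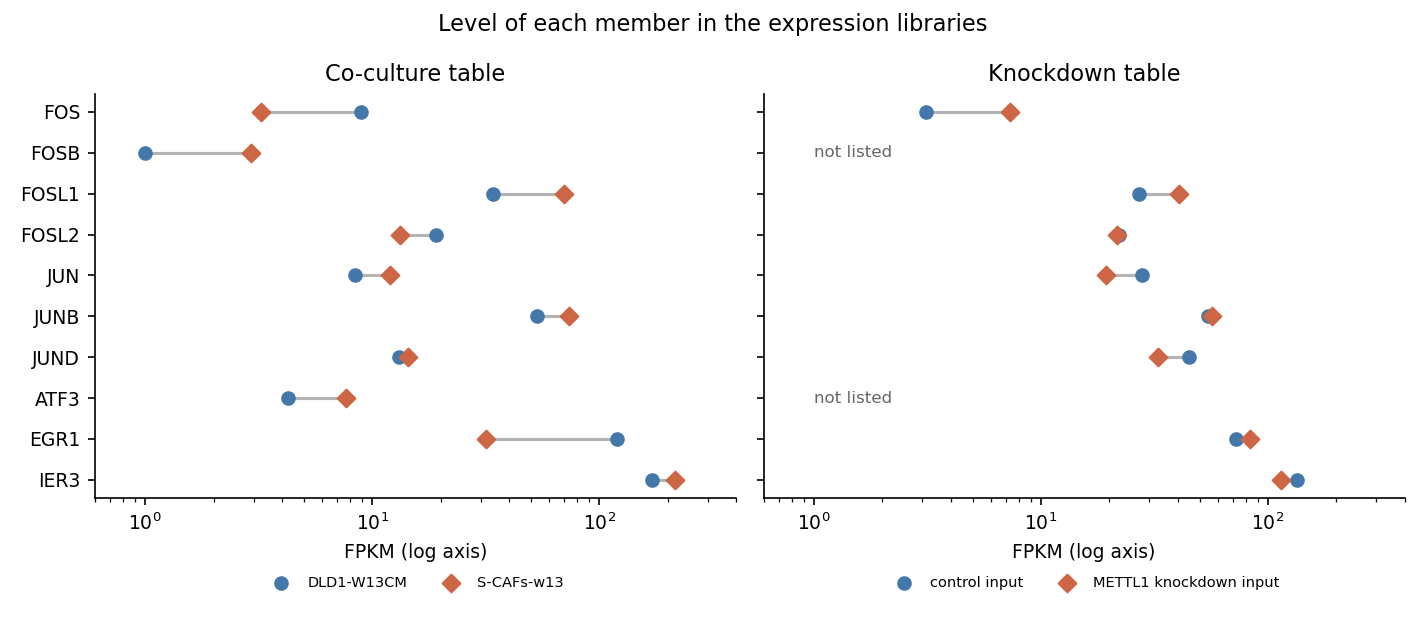
FPKM of each member on a log axis in the co-culture table (DLD1-W13CM, blue circles; S-CAFs-w13, orange diamonds) and in the knockdown table (control input, blue circles; METTL1 knockdown input, orange diamonds), with 1 library per symbol. EGR1 and FOS lie to the left in S-CAFs-w13, and FOS lies to the right in the knockdown.

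The co-culture comparison addresses how the 2 kinds of fibroblast differ in their effect on DLD1 cells, if DLD1-W13CM is the library grown with CAFs. EGR1 and FOS were lower in S-CAFs-w13, and FOSL1, FOSB and ATF3 were higher. The level of EGR1 was 120 FPKM (DLD1-W13CM) and 31.5 FPKM (S-CAFs-w13), 3.8-fold lower (3.47 to 4.16). Its log2 ratio ranked 168th from the bottom of the 14739 genes averaging 1 FPKM or more. FOS stood at 8.92 FPKM and 3.23 FPKM, 2.76-fold lower (2.07 to 3.72). FOSL2 was the other lower member, 1.43-fold (1.29 to 1.59), at 19 FPKM and 13.3 FPKM.

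FOSL1 was the most abundant of the listed FOS family members in all 4 libraries, with FOSB not listed in the knockdown table. It had 33.9 FPKM (DLD1-W13CM) and 70.2 FPKM (S-CAFs-w13), 2.07-fold higher (1.83 to 2.33). FOSB was 2.94-fold higher (1.99 to 4.45) but low, at 0.994 FPKM and 2.93 FPKM, from 35 and 101 reads. ATF3, a stress-induced partner of JUN proteins, was 1.8-fold higher (1.41 to 2.29), at 4.26 FPKM and 7.65 FPKM. JUN stood at 8.38 FPKM and 12 FPKM, 1.43-fold higher (1.18 to 1.74). JUNB stood at 53 FPKM and 73.2 FPKM, 1.38-fold higher (1.24 to 1.54). These are smaller differences than that of FOSL1. IER3 stood at 171 FPKM and 215 FPKM, 1.25-fold higher (1.14 to 1.38). JUND stood at 13.1 FPKM and 14.3 FPKM, and the interval of its ratio, 0.872 to 1.37, included no difference.

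Counted on log2(FPKM + 1), which damps the ratio of low genes, 1 of the 10 members (FOSL1) passed 2-fold upward, where 9.08% of the tested genes did, and 2 (EGR1 and FOS) passed it downward, where 7.92% did. A count of 1 in 10 is near that background. Of all genes past 2-fold 53.4% were higher in S-CAFs-w13, against 39% on the authors' scaling and 36% without the mitochondrial genome, settings that shift the median of all genes to -0.12 and -0.15. The counting interval lay above no difference for 6 members (28.8% of all genes with an interval) and below it for 3 (25.9%). It lay wholly beyond 2-fold for EGR1 and FOS (3.61% of genes lower) and for none of the higher members (4.69% of genes higher). These interval counts hold on the deposited FPKM scaling and were not recomputed on others. Without the mitochondrial genome the log2 ratio of IER3 was 0.1 in place of 0.32, and that of JUN was 0.27 in place of 0.47. The median log2 ratio of the 10 members was 0.39, beside 0.02 over all genes. The call of FOSL1 depended on the scaling: in the authors' deposited table its log2 fold change was 0.904, and its log2 ratio was 0.81 when the genes of the mitochondrial genome were left out and both libraries rescaled. FOSB was past 2-fold with a pseudocount of 0.1 FPKM or none, and its plain log2 fold change in the authors' deposited table was 1.41. The direction of 9 of the 10 members was the same under all scalings run, with JUND the exception (-0.09 to 0.13). Other pseudocounts and filters cannot turn a direction.

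**Figure D2:**
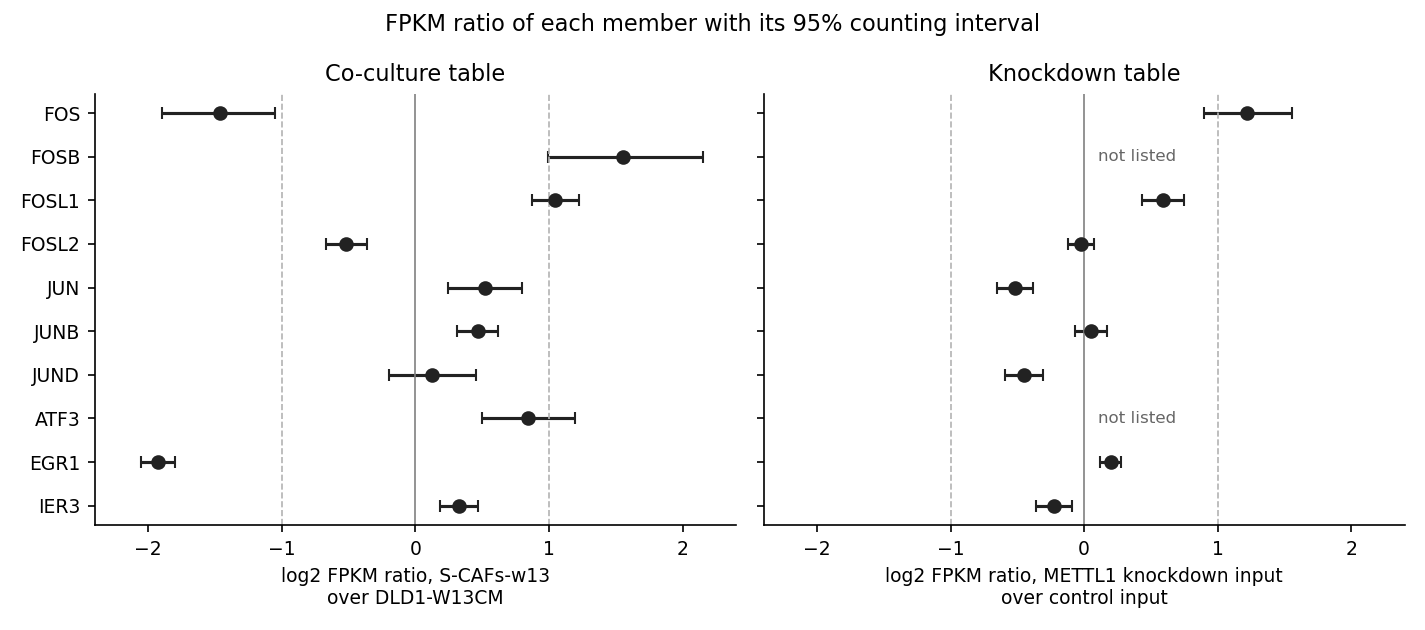
log2 FPKM ratio of each member, S-CAFs-w13 over DLD1-W13CM and METTL1 knockdown input over control input; bars are 95% counting intervals, the solid line is no difference and the dashed lines are 2-fold. FOS and EGR1 lie left of the line in the co-culture table and right of it in the knockdown table, and FOSL1 lies right of it in both.

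The ratio of a pair of members within a library does not depend on how libraries are scaled. Of the 45 pairs of the co-culture table the counting interval of the change in ratio excluded no change for 35, and these intervals were not adjusted for the number of pairs. Within the FOS family 5 of 6 pairs parted and within the JUN family 0 of 3. The share over pairs of all genes was not computed, and each member enters several pairs. Nothing about the families is therefore read from these counts. FOSL1 was 3.81 times the level of FOS in DLD1-W13CM and 21.7 times its level in S-CAFs-w13, a 5.71-fold change in the ratio (4.16 to 7.88). FOS was 8.97 times the level of FOSB in DLD1-W13CM and 1.1 times its level in S-CAFs-w13, an 8.12-fold change (4.91 to 13.5). FOS and FOSB have TATAAA and TGACG at like distances from the gene start in the sequences above. Neither motif is particular to this pair among the members, and FOSL1 had no window. FOSB and FOSL1 were the FOS family pair whose interval included no change (0.941 to 2.2). EGR1 and IER3, the highest members of DLD1-W13CM, parted 4.76-fold (4.16 to 5.44), IER3 being 1.43 times EGR1 in DLD1-W13CM and 6.81 times EGR1 in S-CAFs-w13. EGR1 and FOS, the 2 members past 2-fold downward, parted far less. The ratio of FOS to EGR1 was 1.38-fold higher in S-CAFs-w13, with an interval of 1.01 to 1.86. The change in the JUN to JUNB ratio was 1.04-fold (0.832 to 1.29).

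As shares of the summed FPKM of the FOS family, FOSL1 made up 54% (DLD1-W13CM) and 78.3% (S-CAFs-w13), while FOS made up 14.2% and 3.6% and FOSL2 30.2% and 14.8%. FOSB made up 1.58% and 3.27%. The family sum was 62.9 FPKM and 89.6 FPKM. In the JUN family JUNB made up 71.1% and 73.5%, JUND 17.6% and 14.4% and JUN 11.3% and 12.1% of sums of 74.5 FPKM and 99.5 FPKM. These are shares of mRNA, not of protein.

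**Figure D3:**
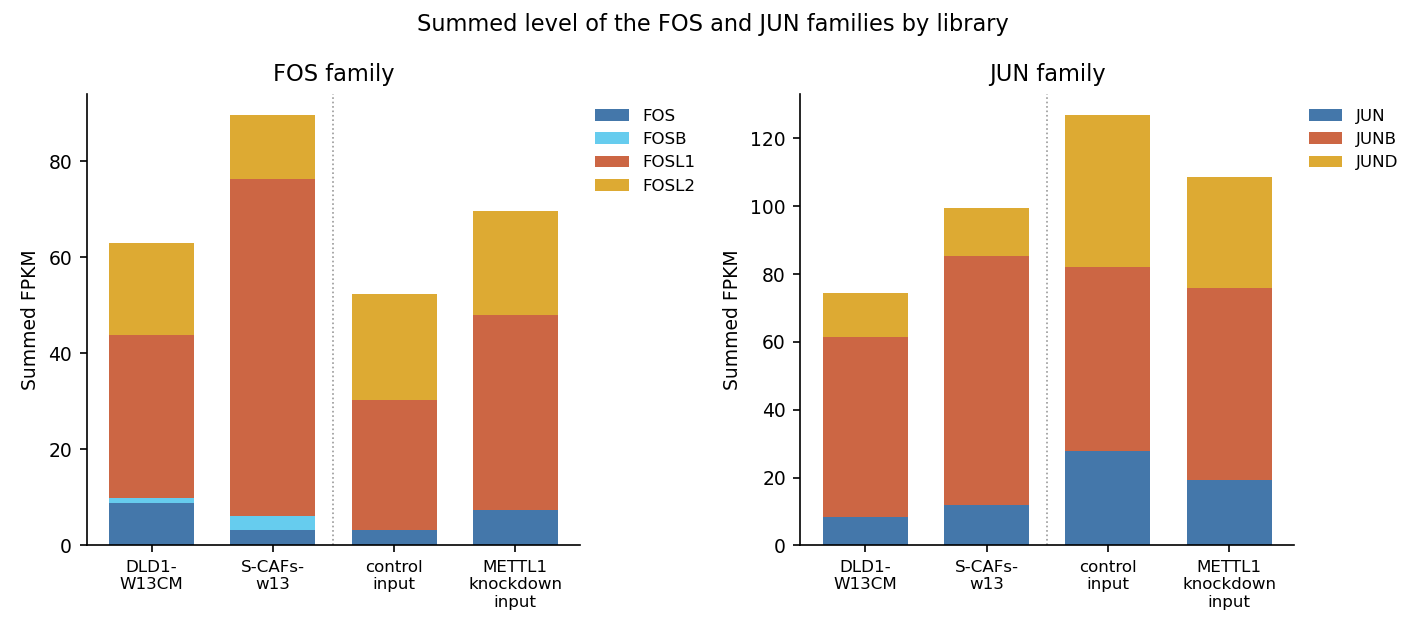
Stacked FPKM of the FOS family (left) and the JUN family (right) in each expression library, 1 library per bar; the dotted line parts the 2 tables, which were normalised separately, and FOSB is not listed in the knockdown table. FOSL1 is the largest FOS family layer in every bar, at 33.9 and 70.2 FPKM in the first 2 bars.

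The knockdown comparison addresses the RNA levels of DLD1 cells with less METTL1. In knockdown input FOS and FOSL1 were higher, and JUN and JUND were lower. FOS stood at 3.13 FPKM in control input and 7.31 FPKM in knockdown input, 2.33-fold higher (1.86 to 2.95), from 106 and 275 reads. FOSL1 stood at 27.1 FPKM and 40.7 FPKM, 1.5-fold higher (1.35 to 1.68). JUN stood at 27.8 FPKM and 19.4 FPKM, 1.43-fold lower (1.31 to 1.58). JUND, a JUN protein that is usually expressed without a stimulus, stood at 44.7 FPKM and 32.7 FPKM, 1.37-fold lower (1.24 to 1.51). EGR1 differed little, at 72.2 FPKM and 82.9 FPKM, 1.15-fold higher (1.09 to 1.21). IER3 stood at 134 FPKM and 114 FPKM, 1.17-fold lower (1.07 to 1.28). FOSL2 stood at 22 FPKM and 21.7 FPKM, with an interval of 0.92 to 1.05. JUNB stood at 54.4 FPKM and 56.4 FPKM, with an interval of 0.953 to 1.13.

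On log2(FPKM + 1) 1 of the 8 members (FOS) passed 2-fold upward, where 0.429% of the 8400 tested genes did, and 0 passed it downward, where 0.56% did. For 0 members the counting interval lay wholly beyond 2-fold, as it did for 0.264% of genes upward and 0.372% downward. FOS ranked 36th from the top of these genes, at the edge of the call: its log2 ratio was 1.01, and 0.99 on the authors' scaling, where 0 members were called. The plain log2 fold change of FOS in the authors' deposited table was 1.21. The counting interval lay above no difference for 3 members (24.8% of genes with an interval) and below it for 3 (23.1%). The median log2 ratio of the 8 members was 0.01, beside 0.01 over all genes. With a single construct, its other effects and those of lower METTL1 cannot be told apart.

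For 26 of the 28 pairs in the knockdown comparison the interval of the change in ratio excluded no change, also unadjusted. Here too the share over pairs of all genes was not computed, and nothing is read from the count. The ratio of FOS to JUN was 3.35-fold higher in the knockdown (2.61 to 4.31) and that of FOS to FOSL2 2.37-fold (1.87 to 3.02). The ratio of FOSL1 to JUN was 2.15-fold higher (1.87 to 2.49), at 0.974 in control input and 2.1 in knockdown input. For JUN to JUND the interval included no change (0.83 to 1.09), while JUNB to JUN was 1.49-fold higher (1.31 to 1.69). FOSL1 made up 51.8% of the FOS family sum in control input and 58.4% in knockdown input, and FOS 5.99% and 10.5%. JUNB made up 42.9% and 52% of the JUN family sum, and JUN 21.9% and 17.9%.

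The comparisons share no library, and their ratios are set side by side. In both tables there were 8 members, and 5 of them had counting intervals that excluded no difference in each, beside 33.4% of the 7842 genes with an interval in both. For 4 of these 5 the directions were opposite, beside 45.9% of the 2623 such genes, and with 5 members nothing is read from that share. The intervals are those on the deposited FPKM scaling. Without the mitochondrial genome the log2 ratio of IER3 in the co-culture comparison was 0.1 in place of 0.32. EGR1 and FOS were lower in S-CAFs-w13 and higher in the knockdown, and JUN and IER3 were higher in S-CAFs-w13 and lower in the knockdown. FOSL1 alone of the 5 was higher in both. METTL1 was lower in both, 2.71-fold in S-CAFs-w13 (1.75 to 4.29). Whether the ratios of the 2 comparisons are related was not tested.

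m7G peaks were listed for the 8 members of the knockdown table, 1 peak each. Their values are the authors'. In 4 of 8 the peak was annotated to the 5' UTR (49.5% of all 9450 peaks), in 3 to the coding sequence (29.5%) and in 1, EGR1, to the 3' UTR (2.06%). Peaks reached the gene start, beginning at most 50 bases after the RefSeq start and ending beyond it, in 6 of the 8, beside 61.2% of the 8514 peaks whose gene matched a RefSeq symbol on the same chromosome. This definition was set after the peaks were seen. The 7-methylguanosine of the mRNA cap sits at that end, and whether caps were removed before the immunoprecipitation is not stated in the labels.

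Over which libraries the fold enrichment was computed, control, knockdown or both, is not stated. FOSL1 had the strongest pull-down among the members, a fold enrichment of 42.2, above 93.4% of all peaks. Its peak spans 4 blocks of 660 bases in all, from 2 bases after the gene start across several exons (chr11:65893246-65900543). JUN had an enrichment of 18.2, with a peak from 160 bases before the RefSeq start to 200 after it (chr1:58783847-58784207), so that it overlaps the JUN stretch printed above. FOSL2 had 10.4 and IER3 9.07, beside a median of 12.4 over all peaks. FOS had an enrichment of 5.21 at chr14:75278804-75279074, beginning 24 bases before the gene start. It was above 7.14% of the peaks in 5' UTRs. JUND had 4.41 in its coding sequence, from 680 to 916 bases after the gene start (chr19:18280706-18280942). JUNB had 2.87 at its gene start (chr19:12791496-12791794), above 1.32% of the peaks in 5' UTRs. EGR1 had the lowest enrichment, 1.88, in a peak of 150 bases near the end of its transcript (chr5:138468807-138468956). The median over the 8 members was 7.14.

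The change in m7G between the lines in the authors' deposited table had an FDR under 0.05 for 2 of the 8 members, 1 above 0 and 1 below 0, where 5.25% of all peaks passed it (3.07% above 0 and 2.18% below). An unadjusted p under 0.05 was listed for 4 members and 16.1% of all peaks. The table does not say which line is the numerator. As signed there, the log2 change of JUNB was 1.57 (FDR 0.000794), and that of FOSL1 was -0.568 (FDR 0.012). Read as knockdown over control, m7G was higher on JUNB, whose input RNA was 1.04-fold higher with an interval including no difference, and lower on FOSL1, whose input RNA was 1.5-fold higher. Read as control over knockdown, both directions turn. For the other members the authors' deposited table gives JUN -1.20 (FDR 0.124) and FOS -1.70 (FDR 0.646). It gives FOSL2 -0.915 with 0.36 and EGR1 -0.671 with 0.589, and, above 0, JUND 0.585 with 0.295 and IER3 0.0979 with 0.655. The value was below 0 for 5 of the 8, beside 48.6% of all peaks. With 1 IP and 1 input library of each line these FDRs cannot cover variation between cultures.

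**Figure D4:**
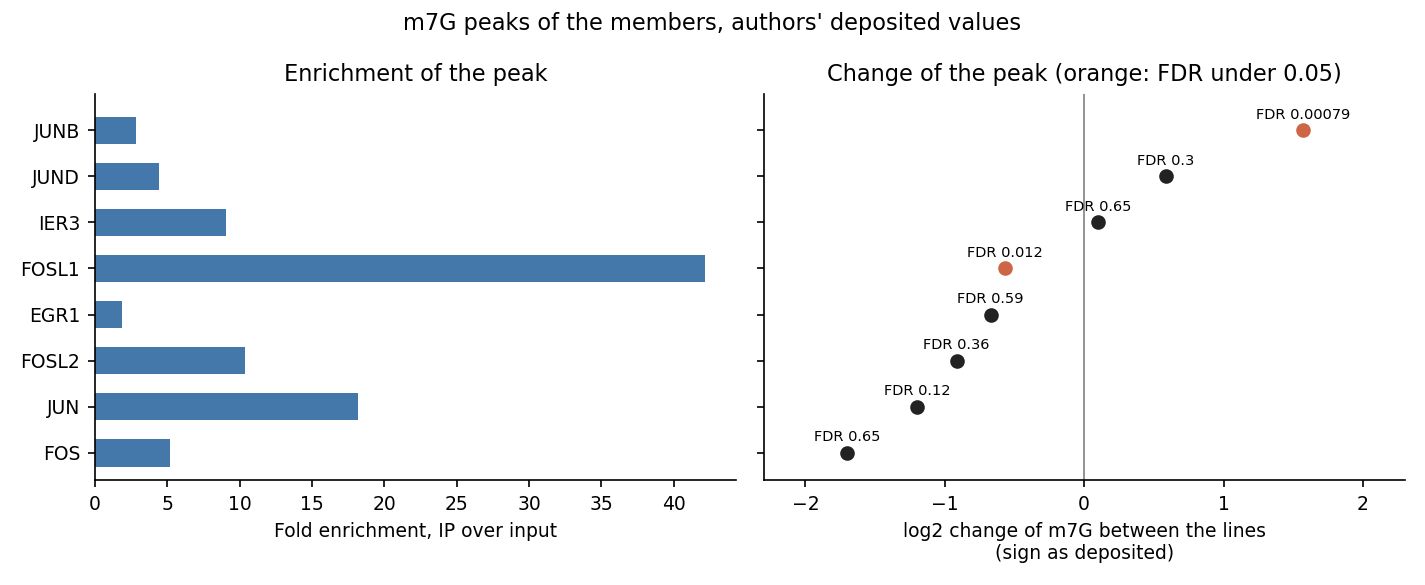
Authors' deposited values for the m7G peak of each of the 8 members, ordered by their change: fold enrichment of IP over input (left) and log2 change between the lines with its FDR (right; orange, FDR under 0.05). FOSL1 has the highest enrichment (42.2), and JUNB (1.57) and FOSL1 (-0.568) are the changes under the threshold.

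Other genes of the pathway were taken from lists that hold the factors, kinases, response genes and targets around AP-1 and EGR1. In the co-culture comparison 7 of 24 other immediate early genes passed 2-fold upward in S-CAFs-w13 and 1 downward, with a median log2 ratio of 0.41. PHLDA1, a pleckstrin homology domain protein, was 4.51-fold higher (4.24 to 4.81), at 23.5 FPKM and 106 FPKM, and GADD45B, a stress-induced growth arrest gene, was 4.02-fold higher (3.05 to 5.36). DUSP2, a phosphatase of MAP kinases, was 5.39-fold lower (1.83 to 21.5), at 3.59 FPKM and 0.666 FPKM.

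Of 17 measured serum response factors and ERK cascade genes 0 passed 2-fold upward and 1 downward, with a median of 0.35. HRAS was that gene, 2.72-fold lower (1.83 to 4.12), at 8.25 FPKM and 3.04 FPKM. Of 9 measured JNK and p38 kinases MAP3K1 was 2.48-fold higher (2.16 to 2.85) and 0 were lower, with a median of 0.28. Among 12 measured bZIP partners ATF7 was 2.45-fold higher (2.11 to 2.86). ATF5 was 7.05-fold lower (5.09 to 9.99) and BATF 4.12-fold lower (1.51 to 14.0), and the list's median was 0.13. Of the EGR family and its NAB corepressors EGR2, EGR3 and EGR4 had means under 1 FPKM and NAB1 and NAB2 were not past 2-fold. At these low levels EGR3 was 6.63-fold higher (2.79 to 19.2), at 0.195 FPKM and 1.29 FPKM. EGR4 was 2.72-fold higher (1.01 to 8.48), at 0.398 FPKM and 1.08 FPKM. The interval of EGR2, 0.199 to 2.14, included no difference. In the list of AP-1 turnover genes 0 of 5 were past 2-fold. The calls of MAP3K1 and ATF7 depended on the scaling. Without the mitochondrial genome their log2 ratios were 0.97 and 0.93, and on the authors' scaling 1.04 and 0.99.

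Of the 8 proteins that bind AU-rich elements, sequences found in the short-lived mRNAs of FOS and other early genes, 3 passed 2-fold upward and 1 downward. Their median log2 ratio was -0.05, and ZFP36 is also 1 of the 7 other immediate early genes counted above. ZFP36L1, of the family that promotes decay of such mRNAs, stood at 50.3 FPKM and 209 FPKM, 4.15-fold higher (3.93 to 4.38), and ZFP36 was 3.44-fold higher (3.05 to 3.9). HNRNPD, another binding protein of these elements, was 2.14-fold lower (1.93 to 2.39). Of 12 measured AP-1 targets 4 were at least 2-fold higher and 1 lower. PLAU, a plasminogen activator, stood at 2.35 FPKM and 11.0 FPKM, 4.68-fold higher (3.36 to 6.64). CXCL8 was 6.53-fold lower (5.17 to 8.34). The background for each of these counts is that given above for the members, 9.08% higher and 7.92% lower. The counts and list medians hold on the deposited FPKM scaling. Over the lists together, with ZFP36 counted once, 15 genes were higher and 6 lower. These were 12 and 7 on the authors' scaling, and 11 and 7 without the mitochondrial genome. Over all genes, 1338 and 1167 became 988 and 1545, and 872 and 1550.

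In the knockdown comparison 0 genes were past 2-fold in the lists of other immediate early genes (20 measured), serum response and ERK genes (11), JNK and p38 kinases (8), bZIP partners (10), AU-rich element binding proteins (7) and AP-1 turnover (5). Over all genes 0.429% passed upward and 0.56% downward, so counts of 0 in lists of this size are near the background. Of the other immediate early genes 15 of 20 had a log2 ratio above 0, beside 51.2% of all genes, with a median of 0.09. Of 10 measured AP-1 targets HBEGF, a ligand of the EGF receptor, stood at 1.55 FPKM and 4.22 FPKM, 2.72-fold higher (1.95 to 3.83). CXCL8 was 3.72-fold lower (2.64 to 5.33), at 6.18 FPKM and 1.66 FPKM.

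Some members share their position with another gene. FOSL2, JUNB and IER3 each overlap 1 other gene in RefSeq (FOSL2-AS1, HOOK2 and IER3-AS1), and no source used here says that reads were counted by strand, so reads of these pairs may not be told apart. HOOK2 stood at 4.83 FPKM and 7.81 FPKM in the co-culture table, beside 53 FPKM and 73.2 FPKM for JUNB. In the knockdown table HOOK2 stood at 18.3 FPKM and 17.1 FPKM, beside 54.4 FPKM and 56.4 FPKM for JUNB. IER3-AS1 stood at 114 FPKM and 151 FPKM, beside 171 FPKM and 215 FPKM for IER3 itself, so the level of IER3 is uncertain. The other 7 members overlap no other RefSeq gene.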

How the data were processed

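Expression of the 10 members was read from the deposited tables, whose FPKM values the authors computed; for the input columns of the knockdown table the FPKM unit was inferred from the values. Log2 fold changes with p-values, and for each m7G peak a fold enrichment (ratio of IP to input), a log2 change and log10 values of p and FDR, are those deposited by the authors, per the file headers. Per the submitters' processing notes, cutadapt 2.5, HISAT2 2.1.0, featureCounts 1.6.3, DESeq2, SAMtools 1.10, HOMER 4.10.4 were used; 3 builds are named there without roles (hg38, GRCh38, GRCm38), and no peak caller is stated. Whole reads were recovered from the ratio of the FPKM columns (tolerance 1e-14), with library sizes scaled on RefSeq lengths of mitochondrial genes (14 of 14 matched up to a whole factor; 7787 of 9147 lengths carried over to the knockdown table). For each gene the smallest reads that give a whole length in both tables were used, so intervals are at their widest. Expression was compared as log2((FPKM + 1)/(FPKM + 1)) over genes averaging 1 FPKM or more, and a printed fold is the FPKM ratio without pseudocount. On simulated counts for the 21519 genes of the co-culture table, 93% of genes changed 4-fold were called past 2-fold, and 97.4% for the 9450 genes of the knockdown table. The interval of a change in the ratio of a pair is the exact conditional interval of the odds ratio (scipy 1.17.1, Python 3.11.15). All members are named, with METTL1, and from each list the 2 highest and 2 lowest genes past 2-fold at most; 1 gene that this rule selects is not reported here. Members and lists were chosen with earlier results of these data known. Alternatives were other pseudocounts, filters and scalings, and the other reading of the m7G change.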

Additional observations from a re-analysis of the deposited data

How the results depend on the processing

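Directions were the same under all rescalings run for 9 of 10 members in the co-culture table (JUND the exception) and 8 of 8 in the knockdown table. Other pseudocounts and filters cannot turn a direction. In the knockdown table the rescalings were small, by a median log2 ratio of 0.006 and by the authors' shift of -0.014. The run without the mitochondrial genome was made for the co-culture table only. The knockdown counting intervals of FOSL2 and JUNB included no difference. The number of members at least 2-fold higher in S-CAFs-w13 was 1 as reported and 2 with a pseudocount of 0.1 FPKM or none (FOSB added). Counted on log2(FPKM + 1), it was 0 on the authors' scaling or without the mitochondrial genome. The plain log2 fold change of FOSB in the authors' deposited table was 1.41, past 2-fold. EGR1 and FOS were at least 2-fold lower under each setting. The shares of higher among all 2-fold genes were 53.4% as reported, 39% on the authors' scaling and 36% without the mitochondrial genome, with medians of -0.12 and -0.15 over all genes. In the knockdown 0 members were at least 2-fold higher on the authors' scaling, and under a filter of 5 FPKM 0 of the list genes were past 2-fold in either direction, since HBEGF and CXCL8 fall under that mean. Of all genes, 36 were higher and 47 lower in the knockdown as reported, 103 and 112 with a pseudocount of 0.1 FPKM, 112 and 126 with none, and 7 and 16 under the 5 FPKM filter. Beside S-CAFs 1338 were higher and 1167 lower as reported, 1939 and 1777 with a pseudocount of 0.1 FPKM, 1974 and 1761 with none, 639 and 539 under the 5 FPKM filter, 988 and 1545 on the authors' scaling, and 872 and 1550 without the mitochondrial genome. At a p under 0.05 in place of the FDR, 4 m7G peaks of members passed. Read as control over knockdown, the m7G change is 0.568 for FOSL1 and -1.57 for JUNB. No paired analysis was possible because each group holds 1 library. Depth limits FOSB and FOS most, at 35 and 65 reads in 1 library each.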
